A study of Homo sapiens with 4 samples.

Results

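Untreated H1299 cells that carried the most RNA counted to transposable elements (TE) were compared with cells of the same culture that carried the least. H1299 is an established human non-small cell lung cancer line. The compared cells were those of the H1299 DMSO library with at least 5000 counts over genes and TEs together, 3548 of its 3578 cells. The TE share of a cell is its TE counts divided by its gene and TE counts. The 5% of cells with the highest share, 178 cells, are called TE-high here, and the 50% with the lowest share, 1774 cells, are called TE-low. The study as a whole holds 15289 cells in 4 libraries. H1299 and HCT116, an established human colorectal cancer line, were each grown with the solvent DMSO or with DAC+SB. DAC stands for decitabine, a blocker of DNA methyltransferases, and SB for SB939, which blocks histone deacetylases. Cells were exposed to DAC for 72 h and to SB939 for 18 h, both at 500 nM. Medium of the treated cells was renewed every 24 h and all cells were at passage 5 to 10. Each combination of line and treatment was 1 library of single cells made with the 5′ chemistry of 10x Genomics from polyadenylated RNA. There was therefore no replicate of any condition, cells of 1 library are not replicates, and no test was made.

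Transposable elements are repeated sequences that make up a large share of the human genome. L1 elements copy themselves through an RNA intermediate, and most genomic copies are old fragments that only contain the 3′ part. LTR elements are remnants of retroviruses, whose terminal repeats can act as promoters: LTR7 drives HERVH, and LTR12 drives HERV9. Alu elements are short and depend on L1 proteins. In most somatic cells these sequences are held silent by DNA methylation and by the histone mark that SETDB1 writes, which TRIM28 and the HUSH complex bring to them. RNA counted to a TE can start within the element or belong to a longer transcript that runs through it, such as an intron. The deposited TE counts carry the label tss, a short form of transcription start site. The sources used here do not say how a start was assigned to an element, so these kinds of RNA are not separated here.

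The H1299 DMSO library held 64524196 counts, of which 128236 were TE counts. Counts of the 12 H1299 marker genes were found for all 12 in both sets of cells and summed to 3532 counts per 1000000 gene and TE counts (CPM) in TE-high and 3474 CPM in TE-low cells. The 12 markers of HCT116 summed to 29.6 and 33.3 CPM, with 9 and 8 of the 12 at 0, CDH1, CDX2 and KRT20 among them. In untreated HCT116 cells the same list stood at 186 CPM. Between 18 and 30 cell barcodes were shared by any pair of libraries, at most 0.805% of a library. No doublet caller was run. Intervals below are exact 95% intervals and cover counting error only.

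TE counts made up 0.199% of all counts in the 3548 cells. The lowest, median and highest TE share was 0.370%, 0.425% and 1.09% in TE-high cells and 0.0292%, 0.143% and 0.186% in TE-low cells. In counts, this was 19 to 194 TE counts per cell with a median of 64 in TE-high cells, against 2 to 85 with a median of 25 in TE-low cells. The sets do not overlap because the share chose them. TE-high is the end of a continuous range and not a separate group of cells. The lowest TE-high cell had 49 TE counts of 13232 (0.3703%), and the next cell down had 26 of 7024 (0.3702%). The highest TE-low cell had 17 of 9134 (0.18612%), and the next cell up had 17 of 9133 (0.18614%). After every cell was thinned to 5000 counts, the variance of the TE counts was 2.73 times their mean, against 6.84 times in untreated HCT116 cells.

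**Figure D1:**
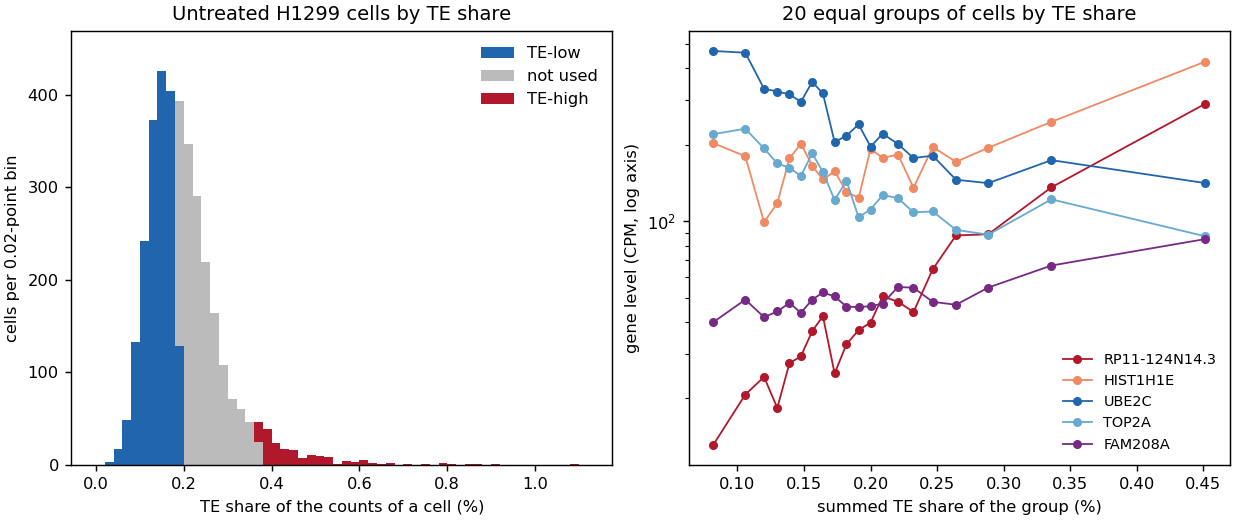
Left, number of untreated H1299 cells (y axis) by TE share of their counts in percent (x axis), with TE-low, TE-high and the cells between. Right, level in CPM on a log axis of 5 genes in 20 equal groups of the 3548 cells ordered by TE share: RP11-124N14.3 goes from 13.1 to 290 CPM and UBE2C from 469 to 141 CPM from the lowest to the highest group.

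Depth and RNA content differed between the 2 sets. TE-high cells had 5022 to 40458 counts with a median of 14013, and TE-low cells had 5072 to 50695 with a median of 17646.5. The share of mitochondrial counts had a median of 11.9% in TE-high cells (3.82% to 36.7%) and of 8.12% in TE-low cells (2.41% to 49.3%). TE-high cells were thus shallower and richer in mitochondrial RNA, although the ranges overlap almost entirely. Along the 20 groups the summed mitochondrial share was 10.4% in the first, 8.56% in the 15th and 12.5% in the last. The median share of ribosomal protein genes was 22.1% in TE-high and 24.98% in TE-low cells.

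A cell can reach the top 5% by sampling noise, so the counts of each cell were split at random into 2 parts, and cells chosen on one part were measured in the other. In the part that had not chosen them, TE counts were 0.420% of counts in the TE-high and 0.156% in the TE-low cells, a ratio of 2.70 (2.62 to 2.78). In the part that chose them the ratio was 3.39. Of the 178 TE-high cells, 98.3% lay above the median and 90.4% above the 95th percentile of TE-low cells in the unused part. The larger part of the difference in TE share was thus also found in the part of the counts that had not chosen the cells. The sources used here do not say whether the deposited counts are counts of molecules or of reads. If they are reads, copies of the same molecule can fall in both parts, and the parts are not independent. In that case neither the ratio nor its interval can separate the difference from sampling noise.

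To ask whether different elements went together, each TE group was left out of the TE share, cells were chosen again on the remaining TEs, and the left-out group was then measured. The group called LTR7 and HERVH here differed most, with a ratio of 5.15 (4.62 to 5.72). It stood at 182 CPM in cells high for all other TEs against 35.4 CPM in cells low for them. HERVH is the endogenous retrovirus best known from pluripotent cells. The group took in every family whose name begins with LTR7 or HERVH, and so also other families such as LTR79. LTR79 had 1268 counts, 86.4% of them from 1 locus, and a ratio of 2.13, beside 1513 counts of HERVH. Values of this group are thus not those of LTR7 and HERVH alone. Older L1 elements, which held 41.7% of all TE counts, stood at 1571 and 665 CPM, a ratio of 2.36 (2.29 to 2.44). Young L1 elements (L1HS and L1PA), which include L1HS, the subfamily with copies that can still move, stood at 96.8 and 37.9 CPM, a ratio of 2.56 (2.23 to 2.93). In these choices the other L1 group was still part of the share. When both were left out together, an alternative added after the data were seen, older L1 had a ratio of 2.39 (2.31 to 2.47) and young L1 one of 2.78 (2.44 to 3.17), so L1 RNA of both ages was higher in cells chosen without any L1 counts. MER-named elements gave 488 and 193 CPM (ratio 2.53), and DNA transposons, which move without an RNA intermediate, gave 174 and 70.2 CPM (2.48). Both groups were made by name. Every family whose name begins with MER was put in the first, whatever its class of element. The second therefore leaves out DNA transposons with such names, and the 2 groups are not separate classes. Other LTR and HERV elements had a ratio of 1.77 and the THE1, MST and MLT elements, which are LTR elements of the MaLR type, one of 1.67. The TEs of no named group, with 1.67% of TE counts, stood at 94.6 and 24.2 CPM. Their ratio of 3.91 (3.38 to 4.50) was the next highest after that of LTR7 and HERVH.

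The LTR12 and Alu elements had lower ratios in this choice of cells, though not in every other one. LTR12 stood at 234 and 179 CPM, a ratio of 1.31 (1.20 to 1.42), although it held 10.2% of TE counts. Alu stood at 35.3 and 27.3 CPM, a ratio of 1.29 (1.03 to 1.60). When cells were chosen within levels of the mitochondrial share, LTR12 (1.82) and Alu (1.69) lay above THE1, MST and MLT (1.56), and in the unused part of the split counts LTR12 (2.16) did too (1.89). The group of L2, L3 and MIR elements had 7 and 70 counts, and its ratio of 1.23 (0.478 to 2.67) allows a difference in either direction. In untreated HCT116 cells processed in the same way the order was another one. The sparse L2, L3 and MIR group had the highest ratio there (4.67, 2.51 to 8.39, from 18 and 38 counts), followed by the TEs of no named group (2.53). Alu had a ratio of 2.34, DNA transposons 2.16, LTR12 2.03, older L1 1.77, MER-named 1.72, LTR7 and HERVH 1.68, THE1, MST and MLT 1.499, other LTR and HERV 1.44 and young L1 1.40. That difference between the lines rests on 1 library each and was not tested.

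**Figure D2:**
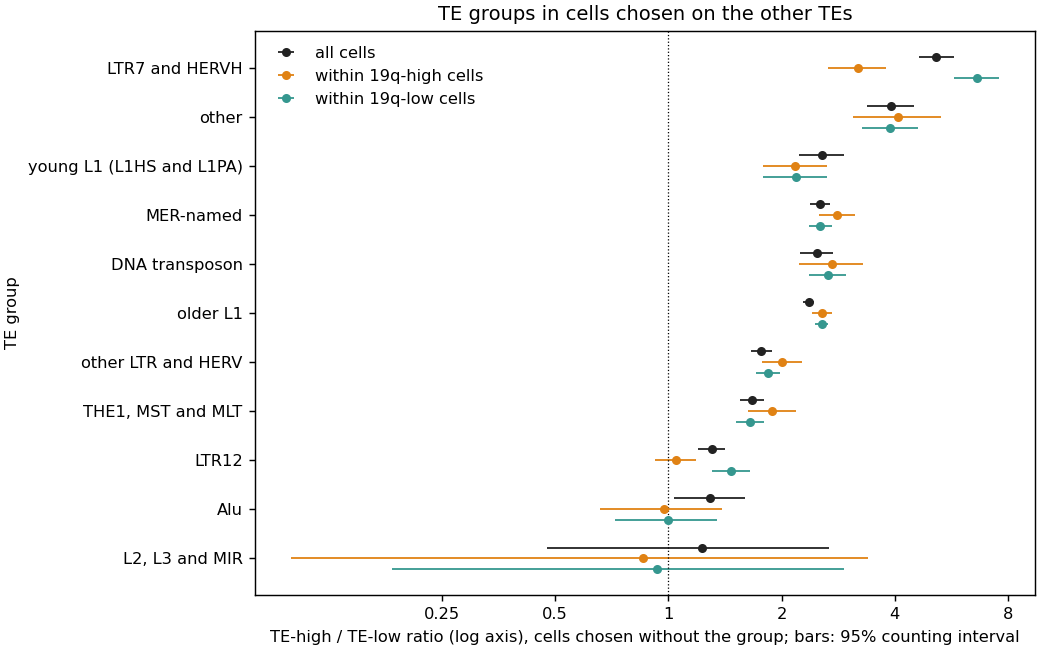
Ratio of TE-high to TE-low cells for each TE group on a log axis, with cells chosen on all other TEs; points are summed counts and bars 95% counting intervals, for all cells and within the 19q-high and 19q-low cells defined further on. The group of names beginning with LTR7 or HERVH lies farthest from 1 over all cells (5.15). Alu lies at 0.972 and 0.995 within the sets against 1.29 over all cells.

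Within L1, families named for each part of the element were higher. Names ending in 3end had a ratio of 2.59 (2.50 to 2.68), those ending in orf2, for the second reading frame, 2.96 (2.62 to 3.33), and those ending in 5end, where the L1 promoter lies, 2.02 (1.87 to 2.18). Of the 357 TE families with counts, 75 had at least 300 counts and held 81.6% of the TE counts. When each was measured in cells chosen without it, 50 of the 75 (66.7%) were at least 1.5-fold higher in TE-high cells, and 2, MSTB (0.578) and MER66B (0.620), were at least 1.5-fold lower. The median ratio was 2.39. Of the 23 names ending in 3end, 22 passed 1.5-fold, with a median ratio of 3.73, and of 11 LTR-named families 3 did, with a median of 1.13. Each 3end family was measured in cells chosen in large part on the other 3end families, which held 32.7% of TE counts. With all of them left out together their ratio was the 2.59 given above, so the 2 medians do not compare like with like.

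The family with the highest ratio was L1ME3Cz_3end, at 42.6 and 3.22 CPM (13.2, 10.1 to 17.4), but 75.9% of its counts came from 1 locus. HERVH followed with 131 and 10.3 CPM (12.8, 10.99 to 14.9), and no locus held more than 4.16% of its counts. HERVH RNA was thus spread over many insertions. Among the 10 families with most counts, L1MB8_3end (3.92), L1MB7_3end (3.55), L1MB4_3end (3.42), L1HS_5end (2.39) and L1MC5a_3end (2.25) were at least 1.5-fold higher. LTR12C (1.35), THE1C (1.15), LTR9 (1.06) and L1M2_5end (0.988) differed by less than 1.5-fold, and MSTB was lower.

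Single abundant loci took little part. Of the 10 TE loci with most counts, each measured in cells chosen without it, 1 LTR12C locus was at least 1.5-fold higher (1.77), the MSTB locus was lower (0.541), and the other 8 had ratios between 0.795 and 1.39. When TE-low counts were thinned to the 12046 TE counts of the TE-high cells, these came from 3945 loci, against 4683 loci in TE-high cells. The 10 leading loci held 22.2% of the thinned TE-low counts and 10.7% of the TE-high counts, and the 100 leading loci 46.5% and 27.9%. These are the counts that chose the cells, so the spread over loci is a description of the sets. The deposited loci carry no coordinates, so their genes and strands are not analysed here.

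Genes were compared over 2701 names of single nuclear genes with at least 50 CPM. In TE-high cells 57 of these (2.11%) were higher by 1.5-fold or more, and 38 (1.41%) were lower by as much. Both counts depended on the processing. The higher genes numbered 99 when cells were chosen within levels of mitochondrial share, 30 when they were chosen within the 2 sets of H1299 cells described further on, 36 for the top 10% of cells and 101 when mitochondrial and ribosomal protein genes were left out of the totals. The lower genes numbered 11, with 7 of the 38 among them, when the share was taken after thinning every cell to 5000 counts, and 23 when cells were chosen within levels of depth, with 21 of the 38. The median log2 ratio was -0.06, and 1090 genes (40.4%) lay above a ratio of 1. Ratios beyond 2 were rarer, with 6 higher and 2 lower genes. The noncoding transcript RP11-124N14.3 stood apart from all others.

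RP11-124N14.3, a clone-named transcript without a matched position, had 773 counts in the 178 TE-high cells and 892 in the 1774 TE-low cells. Its median and highest count per cell were 2 and 43 in TE-high cells and 0 and 18 in TE-low cells. This gave 289 and 27.1 CPM, a ratio of 10.7 (9.67 to 11.7). The level was higher along the whole range of TE share and not at its end alone, from 13.1 CPM in the lowest of the 20 groups to 136 CPM in the 19th and 290 CPM in the last.

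AGBL5, an enzyme that removes glutamates from tubulin (chr2:27042364-27070622, plus strand), stood at 141 and 51.7 CPM, a ratio of 2.72 (2.43 to 3.04), with a median of 2 counts per cell against 1 and a highest count of 16 against 7. Gene features are numbered within some genes in the deposited table, and the feature numbered 2 of AGBL5 accounted for most of this, at 89.4 against 4.96 CPM, a ratio of 18.0 (14.7 to 22.1). The difference thus sat in 1 of the features of the gene, whose position in the transcript is not given. HIST1H1E, a linker histone gene (chr6:26156354-26157107, plus strand), stood at 424 and 158 CPM (2.68, 2.51 to 2.86), with a median of 1 count per cell against 0 and a highest count of 73 against 196. A few cells of both sets therefore held very many counts of it. It was the only one of 9 measured histone genes past 1.5-fold, where 2.11% of all genes were higher: HIST1H1C followed at 96.9 and 74.9 CPM, HIST1H4C was at 1179 and 1375 CPM, and the list median was -0.10.

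RP11-15A1.3 stood at 95.4 and 38.5 CPM (2.48), with a median of 0 counts per cell in both sets and highest counts of 24 and 20. It had a count in 47.2% of TE-high and 35.9% of TE-low cells. C6orf120 stood at 139 and 64.5 CPM (2.16) with a median of 2 counts per cell against 1, and AHNAK2, a very large scaffold protein, at 223 and 121 CPM (1.84) with the same medians. FAM208A, TWF1, ABI2, TGFB1 and SAT1 followed, with ratios from 1.71 to 1.82. FAM208A encodes TASOR, a subunit of the HUSH complex, TWF1 and ABI2 act on actin, TGFB1 is a secreted growth factor and SAT1 acetylates polyamines.

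**Figure D3:**
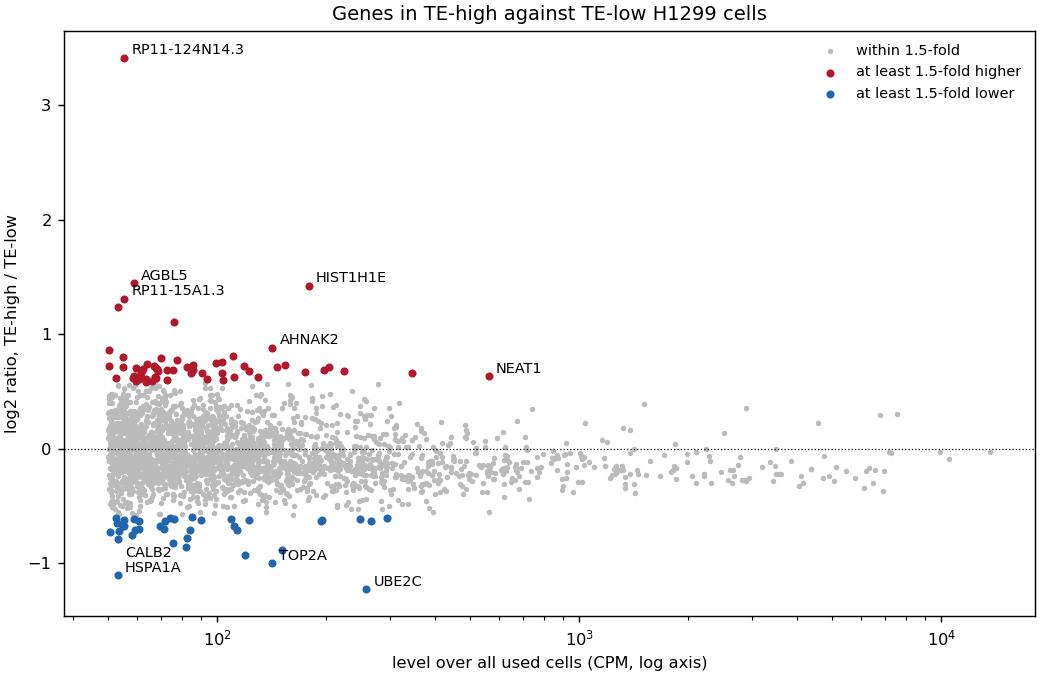
Log2 ratio of TE-high to TE-low cells (y axis) against the level over all 3548 cells in CPM on a log axis (x axis) for the 2701 genes. RP11-124N14.3 lies at 3.41, AGBL5 and HIST1H1E follow at 1.44 and 1.42, and UBE2C is lowest at -1.23.

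Among the 12 lowest genes were several that act in mitosis or at the centromere, a grouping made after the values were seen. UBE2C, the ubiquitin-conjugating enzyme of the anaphase-promoting complex, had a median of 1 count per TE-high cell and 3 per TE-low cell, with highest counts of 16 and 85. It stood at 141 and 330 CPM, a ratio of 0.427 (0.385 to 0.474), and went along the 20 groups from 469 to 141 CPM. TOP2A, which untangles chromosomes, stood at 86.8 and 174 CPM (0.5003, 0.437 to 0.571). The others were HJURP (0.526), the chaperone of the centromeric histone CENPA, AURKB (0.552) and CDCA8 (0.584) of the chromosomal passenger complex, HMMR (0.565) of the spindle and NUF2 (0.594) of the kinetochore. The 12 lowest also held HSPA1A, a heat shock protein, at 29.9 and 64.3 CPM (0.466), PSMB6, a proteasome subunit (0.543), CALB2, the calcium-binding calretinin (0.579), and the mitochondrial inner membrane protein genes TIMM22 (0.603) and SLC25A11 (0.608).

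Of the 24 measured genes of a G2/M and mitosis list, 9 were at least 1.5-fold lower and none higher, against 1.41% of all genes lower, and 22 of the 24 lay below 1. The list median was a log2 ratio of -0.48, against -0.06 for all genes, of which 40.4% lay above 1. Beside UBE2C, TOP2A, AURKB and HMMR, the 9 were PLK1 (58.7 and 95.8 CPM), KIF2C (39.3 and 61.7 CPM), CKS1B (176 and 270 CPM), NUSAP1 (79.7 and 122 CPM) and CENPA (58.4 and 88.8 CPM). The list did not move as one: MKI67, which marks cycling cells, was at 266 and 239 CPM, and CCNB1, the cyclin of mitotic entry, at 132 and 136 CPM. Summed over the list, TE-high cells held 3344 CPM and TE-low cells 4532 CPM, a ratio of 0.738 (0.722 to 0.754). Much of this difference lay within the TE-low range, from 5320 CPM in the lowest group to 4053 CPM in the 10th and 3351 CPM in the last. Of 16 measured S phase genes none passed 1.5-fold in either direction, 13 lay below 1, and the median was -0.13, with PCNA at 56.9 and 70.0 CPM. The count of 9 was 6 when cells were chosen within levels of depth, 5 within levels of mitochondrial share, 5 within the 2 sets of H1299 cells described further on, 4 within levels of the G2/M share and 14 of 28 measured genes when mitochondrial and ribosomal protein genes were left out of the totals. The list median stayed below 0 in these 5 choices, between -0.56 and -0.26. Choosing cells within levels of the G2/M share left 22 lower genes in place of 38.

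Several of the lower genes share a sequence before their start. Many genes with a peak in G2/M carry a cell cycle homology region, whose core resembles TTTGAA, together with CCAAT boxes, which bind NF-Y. In the 120 bases before the RefSeq start, TTTGAA on either strand (TTTGAA or TTCAAA) was found in 10 of the 32 lower genes with a promoter in the table (31.2%), in 2 of 42 higher genes (4.76%), in 3.76% of 2236 tested genes and in 5.75% of 27305 promoters. CCAAT on either strand (CCAAT or ATTGG) was found in 17 of the 32 (53.1%), in 31.0% of the higher genes, in 26.3% of the tested genes and in 21.2% of all promoters. Both were found in 9 of the 32 (28.1%), in 1 of the 42 higher genes (2.38%), in 1.79% of the tested genes and in 1.28% of all promoters. Of the 9 lower members of the G2/M list, 8 had a promoter, UBE2C being without 1. TTTGAA was found in 4 of these 8 (50%) and not in TOP2A, AURKB, KIF2C or NUSAP1. Both motifs were found in 3. The 10 stretches of 30 bases that hold TTTGAA are shown because they include those of HJURP, HMMR, CDCA8, PLK1, CKS1B and CENPA, named above. They are from RefSeq on GRCh38.p14, are written 5′ to 3′ on the strand of the gene, and have both motifs, on either strand, in capitals wherever they fall in the stretch.
HJURP (chr2:233854626-233854655, minus strand): gcaaatttgTTTGAAaggcCCAATcagtgc
HMMR (chr5:163460592-163460621, plus strand): aatgtggggagaTTTGAATTTGAAaccggt
CDCA8 (chr1:37692481-37692510, plus strand): gtgactgtggagTTTGAATTGGgtggcggt
RNF5 (chr6:32178339-32178368, plus strand): CCAATcctttctTTTGAAttctttgtgact
KPNA2 (chr17:68035624-68035653, plus strand): cccaacgtgtttTTCAAAtccaCCAATggg
PLK1 (chr16:23678848-23678877, plus strand): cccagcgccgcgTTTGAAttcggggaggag
PRC1 (chr15:90994538-90994567, minus strand): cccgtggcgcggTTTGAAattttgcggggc
GTSE1 (chr22:46296832-46296861, plus strand): ctcggagcccttTTCAAAccgaCCAATcgg
CKS1B (chr1:154974639-154974668, plus strand): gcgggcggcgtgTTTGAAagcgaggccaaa
CENPA (chr2:26786026-26786055, plus strand): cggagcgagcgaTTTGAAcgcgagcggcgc

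HMMR holds the motif in direct repeat, and in CDCA8 it overlaps the reversed CCAAT box by a base. A match is a description of these letters and not evidence that a factor binds there. HMMR, PLK1, CKS1B and CENPA are members of the G2/M list. Of the others, PRC1 bundles microtubules of the spindle midzone, GTSE1 binds microtubules, KPNA2 is an importin and RNF5 a ubiquitin ligase. The log2 ratios of these 4 were -0.70 for PRC1, -0.62 for GTSE1 and -0.71 for both KPNA2 and RNF5.

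Of 10 measured protein genes encoded by the mitochondrial genome, 3 were at least 1.5-fold higher in TE-high cells, against 2.11% of all genes. MT-ND6, a subunit of complex I and the only protein gene on the light strand of the mitochondrial genome, had a median of 41 counts per TE-high cell and 11 per TE-low cell, with highest counts of 128 and 112. It stood at 2983 and 775 CPM, a ratio of 3.85 (3.75 to 3.95). MT-ND5, whose gene ends beside MT-ND6 on the other strand, stood at 4514 and 1666 CPM, and MT-CO1 at 8300.2 and 4301 CPM. The other 7 measured protein genes had log2 ratios between 0.04 (MT-ND3, at 4309 and 4203 CPM) and 0.34 (MT-CYB), so that all 10 lay above 1 and the median was 0.26. The ribosomal RNAs MT-RNR1 and MT-RNR2 had ratios of 1.08 and 1.28. The sources used here do not say whether the counting used the strand, so RNA of MT-ND6 and RNA from the opposite strand at its position cannot be told apart. When cells were chosen within levels of the mitochondrial share, an alternative added after the data were seen, the summed list had a log2 ratio of 0.17 in place of 0.46, 3 of the 10 still passed 1.5-fold, 5 lay above and 5 below 1 with a median of 0.01, and the higher genes numbered 99 in place of 57. Of 31 measured nuclear genes of oxidative phosphorylation, 29 lay below 1, with a median of -0.19 and NDUFS5 (184 and 285 CPM) the only one past 1.5-fold. Of all genes 40.4% lay above 1. Most of the nuclear genes thus lay on the other side of 1 from the mitochondrial genes. COX6B1 (0.22) was an exception, and it lies in the stretch of chromosome 19 described further on. Within levels of the mitochondrial share 24 of the 31 lay below 1, with a median of -0.09, and the mitochondrial genes no longer lay on 1 side.

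Of 7 measured long noncoding RNAs of a list that holds nuclear RNAs but also cytoplasmic ones such as NORAD and the spliced GAS5, 1 passed 1.5-fold upward, where 2.11% of all genes did. This was NEAT1, the scaffold of paraspeckles, which had a median of 7 counts per TE-high and 6 per TE-low cell and stood at 759 and 489 CPM (1.55, 1.48 to 1.63). MALAT1 of nuclear speckles stood at 9159 and 7431 CPM. Of the 7, 6 lay above 1, where 40.4% of all genes did, and the median log2 ratio was 0.23. GAS5, the host gene of several small nucleolar RNAs, was the member below 1, at 292 and 361 CPM.

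Of 10 measured genes of TRIM28, SETDB1 and HUSH silencing, which hold TEs silent, none was 1.5-fold lower, where 1.41% of all genes were, and 3 lay below 1. In a list this short a count of 0 is near that share and is no result about the list. FAM208A was the member past 1.5-fold upward, where 2.11% of all genes were, at 84.6 and 46.4 CPM (1.82, 1.58 to 2.10), with a median of 1 count per cell in both sets and highest counts of 7 and 9. PPHLN1, which encodes the HUSH subunit periphilin, was next at 72.2 and 49.1 CPM, and ATRX, a chromatin remodeller that deposits H3.3 with DAXX, stood at 108 and 84.4 CPM. TRIM28 stood at 88.3 and 97.7 CPM and DAXX at 62.5 and 73.4 CPM. The list median was a log2 ratio of 0.13, and 40.4% of all genes lay above 1. Of 6 DNA methylation genes, 4 histone deacetylases and 3 Polycomb genes none passed 1.5-fold, with medians of -0.01, 0.21 and 0.16. SETDB1 itself was not among the measured genes.

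Few genes that respond to TE RNA could be measured. Of 40 listed interferon-stimulated genes 5 reached 50 CPM; none of the 5 passed 1.5-fold, 4 lay below 1 and the median was -0.31, with B2M at 211 and 203 CPM. The sensor EIF2AK2 and the editing enzyme ADAR stood at 73.3 and 63.6 CPM and at 101 and 96.2 CPM. Among 5 measured genes that restrict retroelements, 4 lay above 1, and DICER1 had the highest ratio, at 117 and 84.4 CPM. None of these passed 1.5-fold, and with 2.11% of all genes past it upward, lists this short show nothing by that count. With 40.4% of all genes above 1, their counts on 1 side of 1 show little either. Most of these lists were too low to measure at this depth, with 2 of 21 RNA and DNA sensing genes at 50 CPM or more.

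Counts past 1.5-fold in the stress, growth and adhesion lists are to be read against 2.11% of all genes higher and 1.41% lower. Counts on 1 side of 1 are to be read against 40.4% of all genes above it. Of 15 heat shock chaperone genes, HSPA1A was lower and the median was -0.20. All 6 measured genes of the ATF4 response lay below 1 without passing 1.5-fold (median -0.25, ATF4 itself at 110 and 138 CPM). Of 82 ribosomal protein genes none passed 1.5-fold, and 75 lay below 1 with a median of -0.18. Glycolysis genes had a median of -0.16, cholesterol synthesis genes -0.14, splicing genes -0.01, and the MYC network and ribosome biogenesis list -0.07, and none of their measured members passed 1.5-fold. Among 6 genes of arrest and apoptosis, CDKN1A was at 42.7 and 51.9 CPM and BCL2L1 at 85.3 and 59.1 CPM. Of 10 mesenchymal and invasion genes, 3 were higher, TGFB1 and the receptor AXL (294 and 179 CPM) among them, and VIM was at 2216 and 2312 CPM (list median 0.28). TJP1, a tight junction protein, was the 1 of 3 epithelial junction genes past 1.5-fold (155 and 100 CPM), and CTGF (90.2 and 56.1 CPM) was 1 of 2 genes past it among 7 immediate early genes (median 0.12). The germline antigens PRAME and MAGEA4 stood at 81.2 and 61.2 CPM and at 137 and 140 CPM.

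A single stretch of chromosome 19 held 12 of the 53 higher genes with a known position. Of the 2701 genes, 2592 had a position in GENCODE v29. Going along each chromosome, the longest run of neighbouring tested genes above a ratio of 1, allowing 1 below it, held 54 genes from UQCRFS1 to SNRPD2 (chr19:29205321-45692569). By that rule 53 of its 54 genes lay above 1. In it 12 (22.2%) were at least 1.5-fold higher, beside 2.11% of all genes, but its genes were picked for lying above 1 and the 2 shares do not compare like with like. The stretch was looked for after the data had been seen. The log2 ratios of the 54 genes ran from -0.08 (PSMC4) to 0.79 (TGFB1) with a median of 0.35, against -0.13 for the other 125 tested genes of chromosome 19. The next longest run held 19 genes of chromosome 14, from ZC3H14 to MARK3, with a median of 0.26. The same 54 genes had a median of -0.03 in untreated HCT116 cells. Beside TGFB1 and AXL, the 12 included ACTN4, an actin crosslinker, ERCC1 of nucleotide excision repair, SUPT5H, an elongation factor, and the zinc finger gene ZNF146.

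The summed level of these 54 genes had 2 modes over the H1299 cells. A cut at 23000 CPM, set after the distribution was seen, put 902 of the 3548 cells (25.4%, 24.0% to 26.9%) above it, and 57 cells lay within 10% of it. The cells above are called 19q-high and those below 19q-low. Their median levels were 40773 and 13576 CPM. The names refer to the stretch and not to the whole arm. Between 40 and 60 Mb of chromosome 19, which the stretch covers only in part, 25 of 54 tested genes were lower in 19q-high cells (median log2 ratio 0.08). In TE-high cells 69 of 178 (38.8%, 31.6% to 46.3%) were 19q-high, in TE-low cells 299 of 1774 (16.9%, 15.1% to 18.7%), and among the cells between them 534 of 1596 (33.5%). Along the 20 groups the share went from 8.43% in the lowest to 38.4% in the 14th and 39.0% in the last. The 54 genes were picked for lying above 1 in TE-high cells, so the direction of this difference was set by the choice of genes. That TE-high and TE-low cells are unequal mixtures of the 2 sets is therefore a description and not a separate result. In the H1299 DAC+SB library, a separate culture of the line, 942 of 3690 cells (25.5%) lay above the same cut, and in untreated HCT116 4 of 3639 (0.110%). DNA copy number was not measured.

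**Figure D4:**
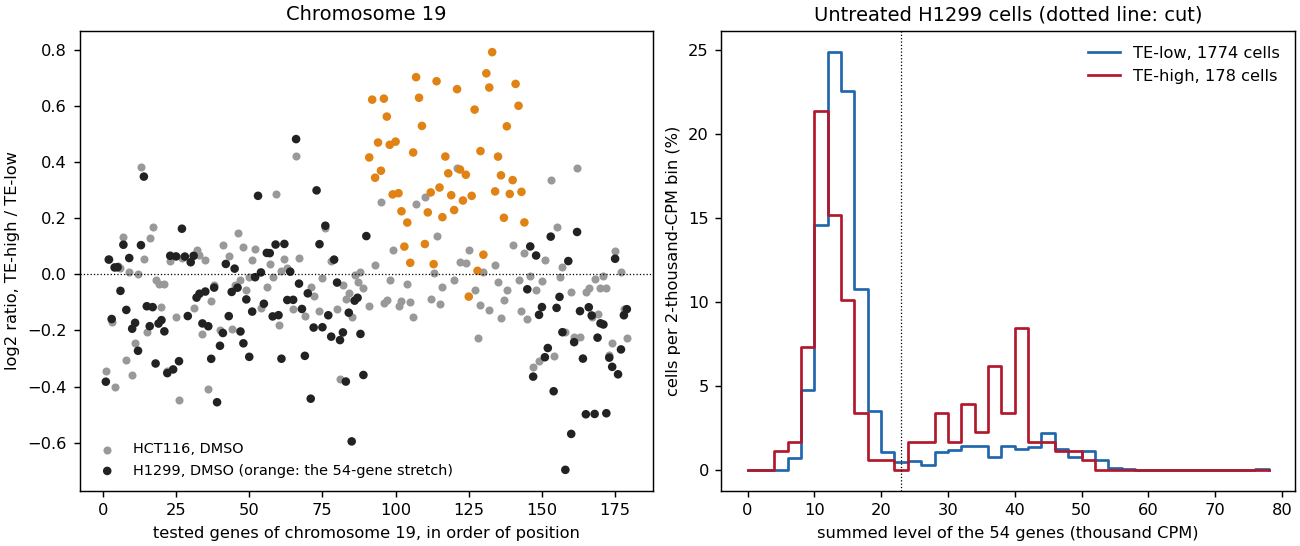
Left, log2 ratio of TE-high to TE-low cells for the tested genes of chromosome 19 in order of position, in untreated H1299 (orange, the 54-gene stretch, median 0.35) and in untreated HCT116 (median -0.03 over the same genes). Right, percent of TE-high and of TE-low cells in bins of the summed level of the 54 genes, with the cut at 23000 CPM as a dotted line: 38.8% of TE-high and 16.9% of TE-low cells lie above it.

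The 19q-high cells differed from the 19q-low cells beyond the stretch that defined them. Their TE counts were 0.227% of counts against 0.188%, their median depth was 18613 against 16902 counts and their median mitochondrial share 6.46% against 8.90%. Their TE groups differed in another order than those of TE-high cells, though young L1 and LTR7 and HERVH were higher in both comparisons. LTR12 stood at 387 against 132 CPM, a ratio of 2.92 (2.82 to 3.02), young L1 at 91.8 against 34.6 CPM (2.65), LTR7 and HERVH at 83.9 against 40.6 CPM (2.06) and Alu at 48.6 against 26.4 CPM (1.84). Older L1 stood at 853 against 818 CPM (1.04) and MER-named elements at 247 against 234 CPM (1.06). LTR12, at 1.31 in the leave-out choice over all cells, had the highest ratio of the TE groups here. H1299 markers summed to 3799 and 3442 CPM in the 2 sets, so both sets carried the markers of the line. AXL is both an H1299 marker and a gene of the stretch, at 461 against 106 CPM, so these sums are not independent of the cut. HCT116 markers summed to 12.3 and 38.4 CPM, a sum that was higher in the 19q-low cells. CDH1, CEACAM6, KRT20, ASCL2 and CDH17 had no counts in any of the 3548 cells, so the sum does not describe the whole list. In untreated HCT116 cells the list stood at 186 CPM.

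Of 2647 genes outside the stretch, 170 (6.42%) passed 1.5-fold upward and 183 (6.91%) downward in 19q-high cells. RP11-15A1.3 stood at 123 against 29.5 CPM (4.16). TMSB4X, an actin-binding peptide (4.01), CTGF (2.92) and BEX3 (2.72) were also higher, and each was at least 1.5-fold higher in TE-high cells too. TSPAN4 (3.24), SLC38A1 (3.11) and AP1M2 (3.06) were higher as well but did not pass 1.5-fold in TE-high cells, with log2 ratios of 0.26, 0.31 and 0.28 there. CALB2 stood at 2.76 against 72.5 CPM (0.0381), and the myosin gene MYO10 at 8.39 against 112 CPM (0.0746). Of these 2 only CALB2 passed 1.5-fold between TE-high and TE-low cells. MYO10 had a log2 ratio of -0.30 there, and FHL1 (0.153 between the sets) and RNF212 (0.196) had -0.04 and -0.13. RP11-15A1.3 and CALB2 were named above as among the genes that differed most between TE-high and TE-low cells.

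The choice of TE-high and TE-low cells was therefore repeated within each set, which gave 46 and 451 of the 19q-high cells and 133 and 1323 of the 19q-low cells. In the 19q-high cells 69 genes (2.52%) were higher and 68 (2.49%) lower, and in the 19q-low cells 43 (1.63%) and 36 (1.36%). The sets had been cut on the summed level of the stretch, so that this choice largely holds its level fixed: 26 of its 54 genes lay above 1 in 19q-high cells (median 0.00) and 8 of 33 measured ones in 19q-low cells (median -0.14). TGFB1 had ratios of 1.31 and 0.983 and AXL of 1.18 and 0.968.

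RP11-124N14.3 kept its place, at 254 and 20.5 CPM within 19q-high cells (12.4, 10.1 to 15.3) and 324 and 27.9 CPM within 19q-low cells (11.6, 10.4 to 12.9). AGBL5 had ratios of 3.39 and 2.94, HIST1H1E of 3.01 and 2.56, C6orf120 of 2.22 and 2.32 and MT-ND6 of 4.35 and 4.19. UBE2C had ratios of 0.413 and 0.448 and TOP2A of 0.542 and 0.558. RP11-124N14.3, AGBL5, HIST1H1E, C6orf120, MT-ND6, UBE2C and TOP2A thus lay past 1.5-fold within both sets. FAM208A stood at 70.0 and 47.8 CPM (1.46, 1.07 to 1.96) within 19q-high and at 93.5 and 45.5 CPM (2.05, 1.75 to 2.40) within 19q-low cells.

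Other genes had unlike ratios in the 2 sets, a difference that was not tested. RP11-15A1.3 had a ratio of 2.11 within 19q-high and of 1.04 within 19q-low cells. CALB2 had 3 counts in the TE-high part of the 19q-high cells and a ratio of 0.854 (0.707 to 1.02) within the 19q-low cells. PLK1 had ratios of 0.909 (0.695 to 1.17) within 19q-high and 0.613 within 19q-low cells, and KIF2C of 0.861 (0.589 to 1.22) and 0.674, so that of these 4 ratios only that of PLK1 in 19q-low cells passed 1.5-fold. HSPA1A had ratios of 0.710 (0.415 to 1.14) and 0.513 (0.399 to 0.651). CALB2 stood at 4.12 and 3.42 CPM in TE-high and TE-low cells once they were 19q-high, and at 64.7 and 75.8 CPM once they were 19q-low.

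**Figure D5:**
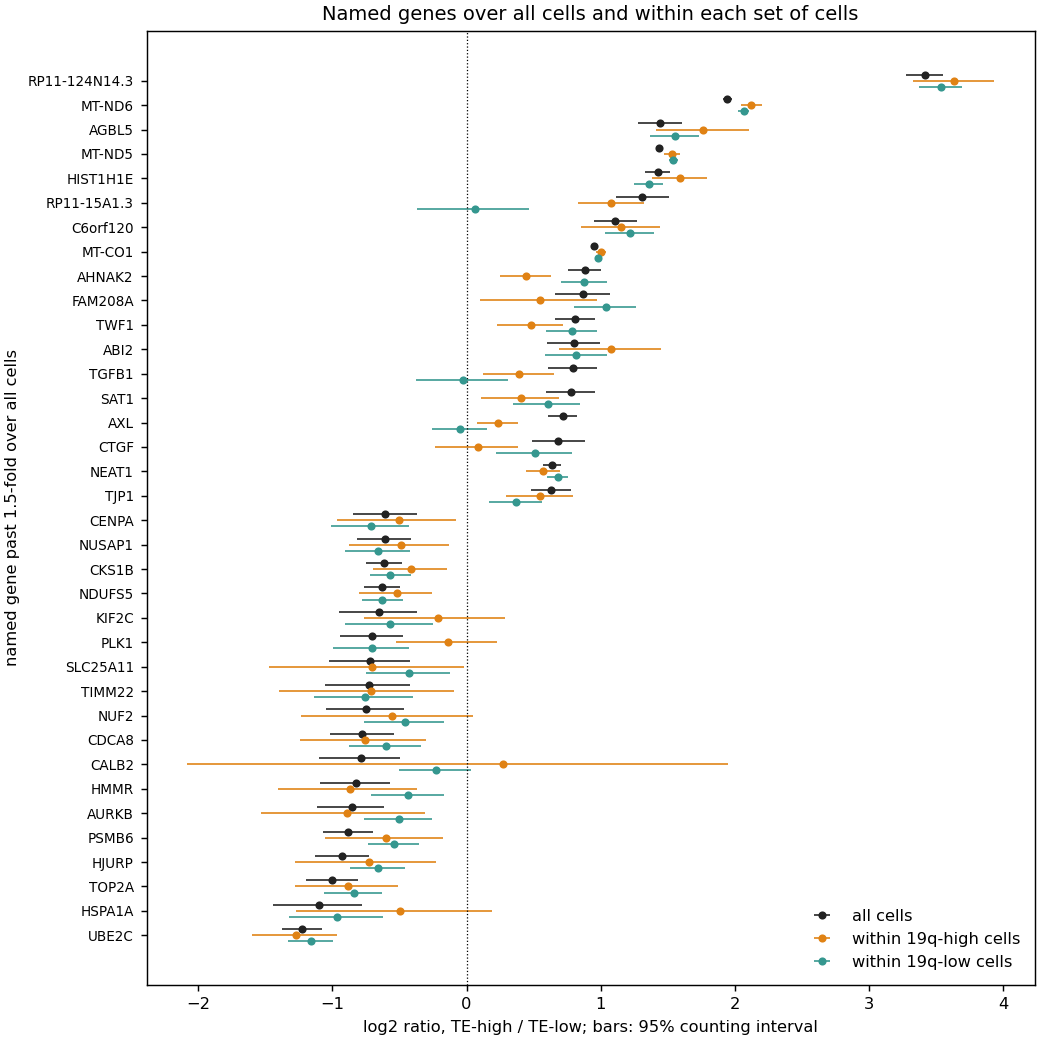
Log2 ratio of TE-high to TE-low cells with 95% counting intervals for the named genes past 1.5-fold, over all cells and within the 19q-high and 19q-low cells. RP11-124N14.3 and MT-ND6 lie at 3.41 and 1.94 over all cells and no lower within either set, whereas RP11-15A1.3 goes from 1.31 to 0.06 within 19q-low cells and TGFB1 from 0.79 to -0.02 within 19q-low cells.

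Gene lists were also compared within each set. Of 10 mitochondrially encoded genes, 6 were at least 1.5-fold higher within 19q-high cells (median 0.61), where 2.52% of all genes were, and 3 within 19q-low cells (median 0.36), where 1.63% were. Of the G2/M list, 6 of 24 and 6 of 23 measured genes were lower, against 2.49% and 1.36% of all genes, with medians of -0.21 within 19q-high and -0.41 within 19q-low cells beside -0.48 over all cells. The mesenchymal and invasion list, whose TGFB1, AXL and PLAUR lie in the stretch, had medians of -0.02 and 0.01 and no member past 1.5-fold within either set, against 0.28 and 3 members over all cells. Among the TE groups, older L1 had a ratio of 2.56 in both sets and young L1 of 2.18 in both. LTR7 and HERVH had ratios of 3.18 (2.66 to 3.79) within 19q-high and 6.60 (5.76 to 7.57) within 19q-low cells. LTR12 had 1.05 (0.923 to 1.18) and 1.47 (1.304 to 1.64), and Alu 0.972 (0.661 to 1.39) and 0.995 (0.721 to 1.34). L1 and the LTR7 and HERVH group, which takes in LTR79, thus went with the other TEs within both sets. The HERVH family alone was not measured within the sets, and no such difference was detectable for Alu at this depth.

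The same rule was applied to the other 3 libraries, each a separate culture. In untreated HCT116 cells, where the TE-high cells were 182 and the TE-low cells 1819, 13 of 2479 genes (0.524%) were higher and 1 (0.0403%) lower. Over the 1997 genes tested in both untreated libraries the log2 ratios had a Pearson correlation of 0.388; genes are not independent replicates. Of 29 higher genes of H1299 tested in HCT116, 21 lay above 1, where 46.0% of all genes did, and 1 passed 1.5-fold. Of 27 lower genes 23 lay below 1, where 53.98% did, and none passed 1.5-fold. RP11-124N14.3 stood at 3.52 and 0.909 CPM there, far below the 50 CPM minimum. HIST1H1E and AGBL5 each had a log2 ratio of 0.93 and MT-ND6 of 0.78. AGBL5 did not reach the 50 CPM minimum in HCT116 and was not a tested gene there. HIST1H1E, AGBL5 and MT-ND6 thus had the same direction in both untreated libraries, by smaller amounts in HCT116. UBE2C had a log2 ratio of -0.43 and TOP2A of -0.13 in HCT116, and the 21 measured G2/M genes had a median of -0.26 with none past 1.5-fold. The histone list was higher in HCT116, with 5 of 8 genes past 1.5-fold and a median of 0.63.

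In the H1299 DAC+SB library the 185 TE-high and 1845 TE-low cells differed over far more genes, 58 of 2285 (2.54%) higher and 430 (18.8%) lower. The 27 lower genes that were also tested there all lay below 1 and 19 of them passed 1.5-fold, where 87.3% of all genes lay below 1. UBE2C had a log2 ratio of -2.02, TOP2A of -1.44 and HMMR of -2.24, and 20 of 21 measured G2/M genes passed 1.5-fold. RP11-124N14.3 (-0.17), AGBL5 (-0.56), HIST1H1E (-0.15) and MT-ND6 (-0.01) were not higher in its TE-high cells. Most measured G2/M genes thus lay below 1 under both conditions of H1299, although in untreated cells 9 of 24 passed 1.5-fold. RP11-124N14.3, AGBL5, HIST1H1E and MT-ND6 lay above 1 in untreated H1299 and below 1 here. Most genes lay below 1 there, with a median log2 ratio of -0.36 over the 2025 genes tested in both libraries. Of the 39 higher genes of untreated H1299 tested there, 23 lay above 1 and 3 passed 1.5-fold, where 12.7% of all genes lay above 1, and the log2 ratios over all genes had a Pearson correlation of 0.370. TE-high cells of that library were 19q-high in 91 of 185 cells (49.2%) against 344 of 1845 (18.6%). In the HCT116 DAC+SB library 68 of 1985 genes (3.43%) were higher and 786 (39.6%) lower, and the log2 ratios had a correlation of 0.0657 with those of untreated H1299 over 1529 genes. These differences between libraries were not tested.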

How the data were processed

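Single-cell libraries of H1299 and HCT116 cells were analysed from the authors' 2 deposited count tables, a gene table (61838 features) and a TE table (275000 features), both in whole numbers. The submitters' processing notes name CASAVA, STAR, GRCh38 and hg38 without a role; the sources used here do not say how the authors counted or whether the deposited counts are counts of molecular identifiers. Cells were assigned to libraries by their names. Counts were summed over TE-high and TE-low cells and divided by summed gene and TE counts, with Python 3.11.15, numpy 2.4.6, scipy 1.17.1 and pandas 2.3.3. Ratios carry exact conditional binomial intervals, shares Clopper-Pearson intervals. Each group was 1 library with 1 replicate, so no test was made. A gene was called at a ratio of at least 1.5 or at most its inverse, over names of 1 nuclear gene with at least 50 CPM in all used cells; names that join several genes (5.02% of gene counts) were an alternative. Numbered features of a gene were added up. The scripts were tested on simulated data. Cells and gene lists were chosen with earlier results of these data known, and the chromosome 19 stretch and its cut after seeing them. Named genes were the 12 highest and 12 lowest ratios in which no TE-high cell held over 20% of the counts, the extremes of each list, and the 10 TE families and 10 loci with most counts; other members named from a list were chosen after their values were seen, and some of the genes that meet the rule are not reported here. Positions are from GENCODE v29 by symbol, promoters from RefSeq (GRCh38.p14). Alternatives changed the depth minimum, the cells compared, the genes tested, the weighting of cells and the fold.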

Additional observations from a re-analysis of the deposited data

Results flagged for a closer look

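For 5 named genes past 1.5-fold in untreated H1299 the log2 ratio of TE-high to TE-low cells had the opposite sign and was also past 1.5-fold in the HCT116 DAC+SB library. RP11-15A1.3 went from 1.31 to -0.9087, AHNAK2 from 0.88 to -1.287, TWF1 from 0.81 to -1.082 and NEAT1 from 0.63 to -0.7079. HSPA1A went from -1.10 to 1.283, but it lay below the 50 CPM minimum in the HCT116 DAC+SB library and was not a called gene there. In that library 92.9% of the 1529 genes tested in both lay below 1, with a median log2 ratio of -0.53, and so most genes lay on the same side as RP11-15A1.3, AHNAK2, TWF1 and NEAT1. The 2 libraries differ in line and in treatment, each is 1 library, and the differences were not tested.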

How the results depend on the processing

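No paired analysis was possible because each group was 1 library and the labels give no replicate numbers. Against 57 higher and 38 lower genes, the thinned choice gave 43 and 11, choice within depth levels 50 and 23, choice within G2/M levels 54 and 22, choice within mitochondrial share 99 and 36, and choice balanced over both 19q sets 30 and 23 (the last 2 were added after seeing the data). Comparing the top 10% gave 36 and 13, the bottom 25% 78 and 62, leaving mitochondrial and ribosomal protein genes out of the totals 101 and 70, choosing without the 10 leading loci 71 and 25, a minimum of 20 CPM 214 and 88, no minimum 5162 and 1004, and a 2-fold threshold 6 and 2. All 57 and 38 genes kept their direction in the choices within depth, G2/M and mitochondrial levels and in the thinned choice, and 56 and 38 did in the choice balanced over both 19q sets. Fewer stayed past 1.5-fold: 39 and 7 in the thinned choice, 43 and 21 within depth levels, 48 and 20 within G2/M levels, 42 and 19 within mitochondrial share and 26 and 17 over both 19q sets. Of 28 named genes past 1.5-fold, 28 kept their direction in the choices of cells and of totals listed here and 12 stayed past 1.5-fold. Within a single 19q set, TGFB1 (0.983) and AXL (0.968) fell below 1 in 19q-low cells and CALB2 lay above 1 in 19q-high cells (1.21, 0.236 to 3.87).

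The log2 ratio of the summed mitochondrial list (0.46) was 0.36 within depth levels, 0.17 within mitochondrial share and 0.52 balanced over both 19q sets. That of the G2/M list (-0.44) was -0.30 within depth levels, -0.24 within G2/M levels, -0.35 within mitochondrial share, -0.37 balanced over both 19q sets and -0.55 without mitochondrial and ribosomal protein genes. The TE ratio in unused counts (2.70) was 2.27 for the top 10%, 2.49 from 10000 counts, 3.20 without the 10 leading loci and 2.52 within depth levels. Leaving out its leading locus moved LTR12 to 1.43, LTR7 and HERVH to 7.03, MER-named to 2.69, THE1, MST and MLT to 2.16, the remaining TEs from 3.91 to 4.72 and other LTR and HERV to 2.10. Within depth levels LTR12 was 1.45, MER-named 2.36 and older L1 2.26. Within mitochondrial share Alu was 1.69, LTR12 1.82, LTR7 and HERVH 4.61, MER-named 2.30, older L1 2.17, the remaining TEs 3.14 and young L1 2.95. Balanced over both 19q sets Alu reversed to 0.982, and older L1 was 2.56, other LTR and HERV 1.89 and young L1 2.18. The cause of these moves was not tested. Counting depth limits the TE share of single cells: a TE-low cell held a median of 25 TE counts.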

Other observations

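The genes that differed between TE-high and TE-low cells differed in length. The longest GENCODE v29 transcript had a median length of 3161 bases over the 2592 tested genes with a position, 4583 bases over the 53 higher genes and 2348 bases over the 38 lower genes. The medians of the gene spans were 25820, 52325 and 12750.5 bases.

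Transcripts known only by a clone name took 1.59% of counts in TE-high and 1.27% in TE-low cells, a ratio of 1.25 (1.23 to 1.26), and long noncoding RNAs 1.60% and 1.39% (1.15, 1.14 to 1.16). Protein-coding genes took 76.9% and 79.9%.

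Between the 19q-high and 19q-low cells other chromosome regions also lay mostly on 1 side. In bins of 20 Mb, 48 of 50 tested genes between 0 and 20 Mb of chromosome 17 were lower in 19q-high cells, with a median log2 ratio of -0.56. The 18 tested genes between 120 and 140 Mb of chromosome 7 had a median of -0.70. The 11 genes between 120 and 140 Mb of chromosome 2 had a median of 0.73, and the 10 genes between 80 and 100 Mb of chromosome 14 one of 0.63. These bins were picked as extremes after their values were seen, and those with 10 to 18 genes are thinly filled.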
